A study of Homo sapiens with 12 samples.

Results

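Keratins are the intermediate filament proteins of epithelial cells, and the keratin genes were taken as every gene whose symbol is KRT followed by a number, with or without a letter from A to C. The 20531 genes of the table held 55 of them, keratin-associated proteins not included. Of the 55, 28 had at least 10 rounded expected counts in at least 1 of 12 libraries and were tested among 14012 genes, 20 stayed under 10 counts everywhere, and 7 (KRT26, KRT33B, KRT38, KRT6C, KRT73, KRT76 and KRT77) had no count in any library. RNAseq was done on polyA RNA of SKBR-3, an established HER2-amplified breast carcinoma cell line that lacks estrogen receptor, grown in RPMI with serum. The design crossed 2 siRNA pools with 2 treatments, 3 replicates in each of 4 groups: non-targeting (NT) siRNA with DMSO, NT siRNA with lapatinib, FOXA1 siRNA with DMSO, and FOXA1 siRNA with lapatinib. Lapatinib, a kinase inhibitor of HER2 and EGFR, was given at 300 nM, and drug or DMSO was present for 24 h. The labels put 48 h of siRNA before the treatment, whereas the methods state a shorter time. All groups therefore carried a transfected siRNA pool, and 1 cell line was used, so that the replicates measure the spread between these samples, which may be technical.

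Keratin filaments are built from pairs of an acidic type I and a basic type II chain, and cells are classed by the pairs they make. The luminal, milk-facing cells of the breast and most simple epithelia make KRT8, KRT18, KRT19 and KRT7. Basal cells of the breast and of stratified epithelia make KRT5 with KRT14, and KRT15 and KRT17 are found in parts of the basal layer and its appendages. KRT6 and KRT16 mark wounded or stressed epidermis, the suprabasal keratins mark maturing stratified epithelia, and the hair keratins build the hardened hair shaft. FOXA1 is a forkhead transcription factor of luminal cells. The type I genes other than KRT18 lie together on chromosome 17, and the type II genes lie with KRT18 on chromosome 12.

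The libraries held from 25749578 to 32271850 expected counts. FOXA1 itself had a mean normalized count of 8505 ± 235 (SD, n = 3) with NT siRNA and DMSO and 1362 ± 202 with FOXA1 siRNA and DMSO, and of 12670 ± 504 and 1971 ± 378 in lapatinib. ERBB2, the gene of HER2, was at 2718 to 6105 TPM (a level corrected for gene length and depth) in the 12 libraries. Of 10 myoepithelial markers, CNN1 and CDH3 were at 0 in all libraries and TP63, a transcription factor of basal cells, did not pass 0.16 TPM. In DMSO the 10 summed to 10.5 to 12.1 TPM after NT siRNA and to 13.4 to 16.2 TPM after FOXA1 siRNA. In lapatinib they summed to 14 to 18.95 TPM and to 17.4 to 19.5 TPM. The part of such cells in the keratin results was not tested. In bulk RNA a change in every cell and a change in the number of cells that make a keratin cannot be told apart.

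The luminal keratins dominated in every library. KRT8, KRT18, KRT19 and KRT7 together made up 88.4% to 90.8% of all keratin TPM, and all keratins 1.38% to 1.81% of the TPM of the listed genes. The order by TPM was KRT19 (5180 ± 142 (SD, n = 3) with NT siRNA and DMSO), KRT8 (3891 ± 308), KRT18 (2290 ± 296) and KRT7 (2189 ± 234). KRT18 and KRT7 did not differ beyond their spread. Next came the hair keratin KRT81 (823 ± 113 TPM), then KRT4 (299.7 ± 23.7), a keratin of mucosal epithelia, KRT10 (175 ± 17.4), the partner chain of cornifying epidermis, and KRT80 (112 ± 25.1). Of the basal keratins, KRT15 alone passed 2 TPM, with 17.5 ± 0.318 TPM. KRT5, KRT14 and KRT17 stayed at or under 1.52 TPM in all 12 libraries.

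**Figure D1:**
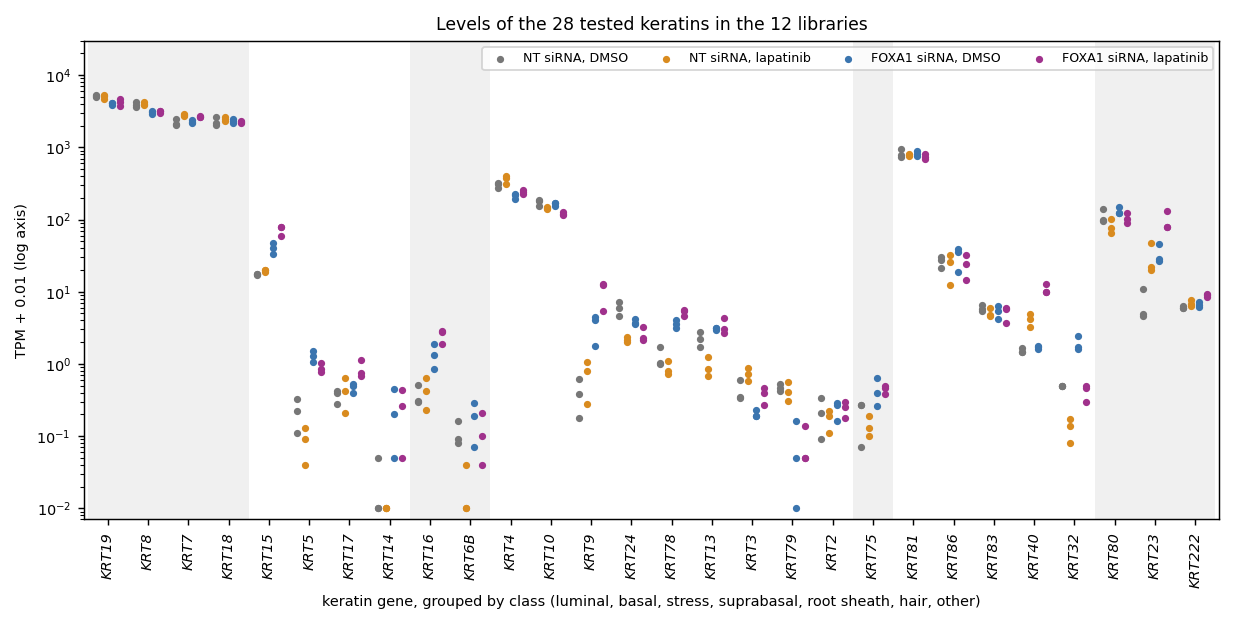
Level of each of the 28 tested keratins in each library, as TPM plus 0.01 on a log axis. Each point is 1 of 12 libraries, coloured by group, and shading separates the keratin classes. The 4 luminal keratins and KRT81 sit highest, while KRT15, KRT5, KRT16, KRT9 and KRT78 shift upward in the groups with FOXA1 siRNA.

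Summed over classes, the luminal keratins went from 13550 ± 934 TPM (SD, n = 3) with NT siRNA and DMSO to 11630 ± 409 with FOXA1 siRNA and DMSO, and from 14340 ± 400 to 12226 ± 386 TPM in lapatinib. The ranges did not overlap in either treatment. The basal sum went the other way, from 18.04 ± 0.285 to 42.1 ± 7.12 TPM in DMSO and from 20.1 ± 0.691 to 74.3 ± 12.1 TPM in lapatinib, again without overlap. KRT15 supplied most of it. The hair sum was 858 ± 117, 816 ± 28.4, 868 ± 54.7 and 787 ± 65.8 TPM in the 4 groups in the order above, and its ranges overlapped. The stress keratins stayed at or below 3.09 TPM in every library. Type I and type II chains were near balance throughout, with a ratio of summed TPM between 0.928 and 1.08. These sums describe the classes and were not tested.

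**Figure D2:**
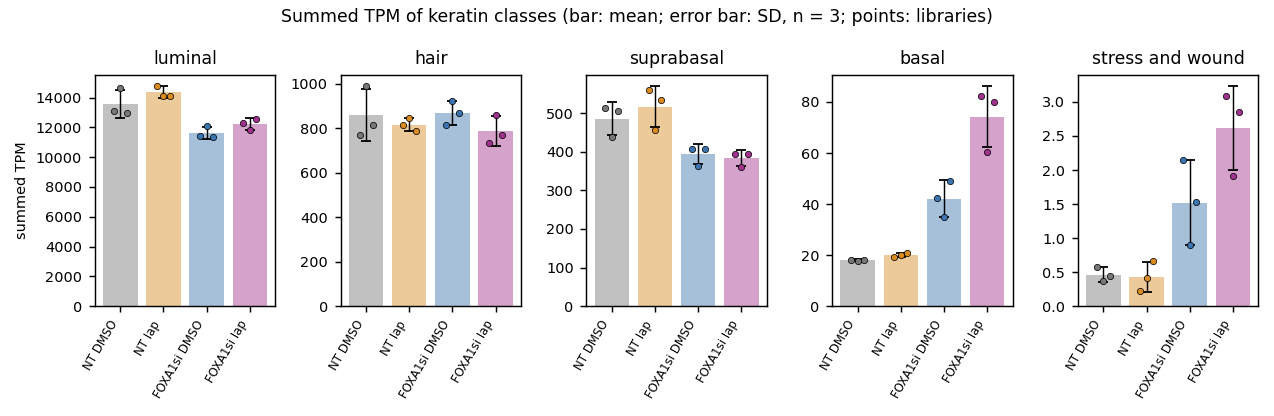
Summed TPM of 5 keratin classes by group, each panel on its own scale from 0. Bars are means with SD (n = 3) and points are libraries. With FOXA1 siRNA the luminal and suprabasal sums are lower and the basal and stress sums are higher than in the matched groups with NT siRNA, while the hair sums overlap.

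What FOXA1 siRNA did to the keratins in DMSO was examined first. Of 28 tested keratins, 8 rose and 6 fell at an adjusted p under 0.05 (edgeR quasi-likelihood test), where 21.0% of all 14012 tested genes rose and 21.0% fell. The share of keratins called was above the background for the rise (8 of 28) and near it for the fall (6 of 28), and no test of the list was made. All 8 that rose (KRT5, KRT9, KRT14, KRT15, KRT16, KRT23, KRT32 and KRT78) and 2 of the 6 that fell (KRT3 and KRT79) did so by 1 or more on the log2 scale. The median log2 fold change was 0.21 over the tested keratins and -0.009 over all tested genes. A keratin that reached 10 counts only where it was high had to differ, so these figures are descriptions. KRT6B, KRT14 and KRT75 reached them only in libraries with FOXA1 siRNA, and KRT79 only in libraries with NT siRNA. In lapatinib, 12 keratins rose and 7 fell with FOXA1 siRNA, against 22.2% and 21.8% of all tested genes, with a median of 0.43 against -0.005. A fit blocked on the replicate number had 11 rise and 6 fall in DMSO, and 15 rise and 8 fall in lapatinib. The share over all genes was not computed with that block. The comparisons share libraries with the drug comparisons below.

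Among the luminal keratins FOXA1 siRNA lowered KRT8 and KRT19 in both treatments. KRT8, the type II chain of simple epithelia, had normalized counts of 104157, 108460 and 95085 with NT siRNA and DMSO and 80307, 82300 and 76978 with FOXA1 siRNA and DMSO. In lapatinib they were 113105, 104303 and 105379 and 84459, 80429 and 84648. All 6 libraries with FOXA1 siRNA were below all 6 with NT siRNA. The log2 fold changes were -0.35 (SE 0.05, adjusted p = 0.00152) and -0.38 (SE 0.05, adjusted p = 0.000401, edgeR). KRT19, a type I chain without a tail domain, had normalized counts of 117947, 118505 and 117944 against 87802, 91986 and 92550 in DMSO, a log2 fold change of -0.37 (SE 0.03, adjusted p = 0.000125, edgeR). In lapatinib the counts were 122271, 106520 and 122117 against 98999, 86355 and 106927. The groups overlapped there, since replicate 2 was low with both siRNAs. The log2 fold change was -0.27 (adjusted p = 0.0324), and the call was lost without replicate 1 or 3 with NT siRNA (adjusted p = 0.106 and 0.103) or replicate 1 or 2 with FOXA1 siRNA (0.0724 and 0.0664).

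KRT18, the usual partner of KRT8, did not follow it. Its normalized counts were 50130, 57033 and 46102 with NT siRNA and DMSO and 50694, 54705 and 48007 with FOXA1 siRNA and DMSO, and the groups overlapped. The log2 fold change was 0.01 in DMSO and -0.15 (SE 0.05, adjusted p = 0.0448) in lapatinib, where the counts were 56042, 58641 and 52666 against 49951, 52623 and 49625. That call was lost without replicate 1 or 2 with NT siRNA (adjusted p = 0.121 and 0.0946), without replicate 1 or 3 with FOXA1 siRNA (0.131 and 0.142) and with upper quartile scaling (0.0845). The ratio of KRT18 to KRT8 in TPM was 0.587 ± 0.0308 (SD, n = 3) and 0.618 ± 0.0434 with NT siRNA, in DMSO and lapatinib, and 0.756 ± 0.0244 and 0.725 ± 0.0436 with FOXA1 siRNA, with no overlap between the siRNAs in either treatment. KRT18 shares 5.36% of its 75-base stretches with other transcripts, its pseudogenes first, and KRT8 and KRT18 overlap on opposite strands, so that their counts carry this uncertainty. KRT7 was not called with FOXA1 siRNA in DMSO (log2 fold change 0.04). In lapatinib it was -0.09 (adjusted p = 0.0663, or 0.0108 in the fit blocked on the replicate number). The fifth luminal keratin, KRT20 of the gut lining, reached no more than 8 counts.

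The basal keratins rose with FOXA1 siRNA from far lower levels. KRT15 had normalized counts of 539.7, 503 and 545 with NT siRNA and DMSO and 1199, 1004 and 1417 with FOXA1 siRNA and DMSO, and in lapatinib 562, 595 and 625 against 2377, 1762 and 2366. The lowest library with FOXA1 siRNA was above the highest with NT siRNA. The fold changes were 2.29 (log2 1.20, SE 0.12, adjusted p = 0.000183) and 3.62 (log2 1.86, SE 0.12, adjusted p = 1.55e-05, edgeR). KRT5, the type II chain of basal cells, had 11.8, 7.93 and 2.88 against 54.95, 38.1 and 46.6 normalized counts in DMSO and 1.19, 3.98 and 3.08 against 37.2, 27.9 and 31.7 in lapatinib. It rose 6.14-fold (log2 2.62, SE 0.39, adjusted p = 0.00119) and 10.9-fold (log2 3.44, SE 0.38, adjusted p = 0.000199), with no overlap, but its highest level was 1.52 TPM.

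KRT14, the type I partner of KRT5, stayed close to the limit of these libraries. Its rounded counts were 1, 0 and 0 with NT siRNA and DMSO, 0, 0 and 0 with NT siRNA and lapatinib, 11, 5 and 1 with FOXA1 siRNA and DMSO, and 10, 1 and 6 with FOXA1 siRNA and lapatinib. It entered the test through the libraries with FOXA1 siRNA, so that its calls there (adjusted p = 0.0482 and 0.0389, edgeR) are descriptions. The summed counts of 17 against 1 in DMSO give a depth-corrected ratio of 16.7 (95% interval 2.61 to 697, counting error only). For 17 against 0 in lapatinib the lower end of the 95% interval is 3.9. Against 3 counts over the group, taken as the limit, the ratio is 5.36, without the counting error of the 17. The call in DMSO held in 1 of 6 fits that each left out 1 library (the one without replicate 3 with FOXA1 siRNA) and that in lapatinib in 1 of 6 (without replicate 2 with FOXA1 siRNA), with adjusted p up to 0.159 and 0.1. KRT14 shares 10.2% of its 75-base stretches with other transcripts, KRT16 among them. KRT17 was not called in DMSO (log2 fold change 0.35) and in lapatinib had 15.4, 4.97 and 10.3 against 27.9, 16.3 and 18.4 normalized counts, without overlap (log2 fold change 1.04, adjusted p = 0.0777, and 0.0184 with the replicate block).

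Of the stress keratins, KRT16 rose with FOXA1 siRNA. The libraries had 13.8, 7.93 and 7.67 normalized counts of it against 49.95, 22.3 and 35.2 in DMSO and 5.94, 10.9 and 17.4 against 78.5, 50.9 and 74.7 in lapatinib, with no overlap. The fold changes were 3.64 (log2 1.86, SE 0.39, adjusted p = 0.00615) and 5.76 (log2 2.53, SE 0.34, adjusted p = 0.000609, edgeR). KRT6B had rounded counts of 3, 2 and 6, 0, 0 and 1, 10, 2 and 7 and 7, 1 and 3 in the groups in the order above, was not called in DMSO, and had an adjusted p of 0.0775 in lapatinib (0.0404 with the replicate block). It reached 10 counts only with FOXA1 siRNA and DMSO, so these values are descriptions. KRT6B shares 34.6% of its 75-base stretches with KRT6A, KRT6C and KRT5, so that reads may be split among them. KRT6A reached 1 count and KRT6C none.

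The 9 tested suprabasal keratins split. KRT9, a keratin of palm and sole skin, had the largest fitted fold change of the keratins with more than 100 normalized counts in a group. Its normalized counts were 13.8, 5.95 and 22.04 with NT siRNA and DMSO and 147, 63.3 and 162 with FOXA1 siRNA and DMSO, and in lapatinib 28.5, 9.94 and 38.98 against 470.0, 196 and 455. It rose 8.83-fold (log2 3.14, SE 0.48, adjusted p = 0.00135) and 14.4-fold (log2 3.85, SE 0.47, adjusted p = 0.000339, edgeR), and replicate 2 was the lowest in all 4 groups. KRT78 had 28.6, 45.6 and 28.8 against 87.9, 96.8 and 112 normalized counts in DMSO and 20.2, 30.8 and 22.6 against 157, 154 and 131 in lapatinib, a rise of 2.90-fold (log2 1.54, adjusted p = 0.00112) and 5.90-fold (log2 2.56, adjusted p = 3.06e-05). KRT13, the type I partner of KRT4 in mucosa, rose in lapatinib, where its counts were 33.3, 21.9 and 17.4 against 118, 71.1 and 83.9 (log2 fold change 1.91, SE 0.29, adjusted p = 0.00112). In DMSO the counts of KRT13 were 69.9, 44.6 and 59.4 against 77.9, 81.9 and 83.7 (log2 0.49, adjusted p = 0.0657, and 0.0247 with the replicate block).

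KRT4 itself moved down with FOXA1 siRNA. The partner chain KRT4 had 13352, 10884 and 12567 against 9045, 7857 and 8950 normalized counts in DMSO and 16812, 12777 and 15911 against 10462, 9327 and 10175 in lapatinib, without overlap. The log2 fold changes were -0.50 (SE 0.08, adjusted p = 0.00171) and -0.61 (SE 0.10, adjusted p = 0.00164, edgeR). KRT79 and KRT3 fell too. KRT79 had rounded counts of 10, 12 and 11 against 1, 4 and 0 in DMSO and 8, 7 and 13 against 1, 1 and 3 in lapatinib, and reached 10 only with NT siRNA. Its summed counts were 33 against 5 in DMSO and 28 against 5 in lapatinib, ratios of 6.73 (95% interval 2.61 to 22.1) and 5.92 (2.26 to 19.6) for NT siRNA over FOXA1 siRNA (adjusted p = 0.0139 and 0.00853). Its call in DMSO was lost without replicate 1 of that FOXA1 siRNA group (0.0533). KRT3, a corneal keratin, had 21.7, 11.9 and 12.5 against 7.99, 6.51 and 6.66 normalized counts in DMSO and 32.1, 20.9 and 26.7 against 16.5, 9.61 and 14.3 in lapatinib, without overlap. KRT3 had a log2 fold change of -1.10 (adjusted p = 0.0426) in DMSO and -0.98 (adjusted p = 0.0307) in lapatinib, at 0.87 TPM or less. DESeq2 did not call KRT3 (0.15 and 0.0932), and in DMSO only the fit without replicate 2 with NT siRNA kept the call. In lapatinib the call held without replicate 2 with NT siRNA and without replicate 1 with FOXA1 siRNA, and was lost without any of the other 4 libraries (0.0707 to 0.0986). KRT10 had 2126, 1712 and 2128 against 1909, 1744 and 1934 normalized counts in DMSO, which overlapped, and 1674, 1581 and 1755 against 1319, 1348 and 1459 in lapatinib, which did not. It fell with FOXA1 siRNA in lapatinib (log2 -0.29, adjusted p = 0.00791) and was at -0.09 in DMSO, the interaction (-0.18) not being called, and KRT2 was not called in any comparison.

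The hair keratins did not move as a class. KRT81, KRT83 and KRT86, the type II hair chains that were tested, were not called in any of the 5 comparisons. KRT81 had 21416, 26324 and 22052 normalized counts with NT siRNA and DMSO, 22052, 22656 and 22020 with NT siRNA and lapatinib, 21642, 25041 and 23071 with FOXA1 siRNA and DMSO, and 19879, 23343 and 20749 with FOXA1 siRNA and lapatinib, all groups overlapping. With the replicate block KRT81 fell with lapatinib after FOXA1 siRNA (log2 -0.12, adjusted p = 0.00452). KRT86 had 729.8, 976 and 909 normalized counts in DMSO and 861, 1082 and 418 in lapatinib after NT siRNA, and 1167, 605 and 1288 in DMSO and 480.4, 798 and 1091 in lapatinib after FOXA1 siRNA, again overlapping. KRT83 lay between 110.5 and 187. KRT81 shares 36.6% and KRT86 32.7% of their 75-base stretches with other transcripts, first each other and then KRT87P, a pseudogene. The 2 genes also overlap on opposite strands, so the split between them is uncertain. The other 12 hair keratins were not tested, with at most 8 counts in a library.

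KRT32 and KRT40, both type I, did move. KRT32, a chain of the hair cuticle, had 15.8, 14.9 and 15.3 normalized counts with NT siRNA and DMSO and 50.95, 53.02 and 75.2 with FOXA1 siRNA and DMSO. In lapatinib these were 2.38, 3.98 and 5.13 and 9.30, 15.4 and 14.3. It rose with FOXA1 siRNA 3.90-fold (log2 1.96, SE 0.24, adjusted p = 0.00046) in DMSO and 3.26-fold (log2 1.70, SE 0.42, adjusted p = 0.0118) in lapatinib. The latter was not called by DESeq2 (0.0529). KRT32 fell with lapatinib after both siRNAs, by 1.92 (SE 0.38, adjusted p = 0.00259) with NT siRNA and by 2.18 (SE 0.27, adjusted p = 0.000233) with FOXA1 siRNA on the log2 scale. Its levels with FOXA1 siRNA and lapatinib and with NT siRNA and DMSO overlapped, at 13 ± 3.25 and 15.3 ± 0.444 normalized counts (SD, n = 3).

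KRT40 rose with lapatinib instead. In normalized counts it was at 46.3, 48.6 and 45.05 with NT siRNA and DMSO and 133, 153 and 102 with NT siRNA and lapatinib, and after FOXA1 siRNA 50.95, 53.96 and 53.3 in DMSO and 306, 393 and 310.1 in lapatinib. The rise was 2.81-fold (log2 1.49, SE 0.19, adjusted p = 0.000244) with NT siRNA and 6.40-fold (log2 2.68, SE 0.14, adjusted p = 4.35e-06) with FOXA1 siRNA. FOXA1 siRNA made no called difference in DMSO (log2 0.19) and raised KRT40 2.59-fold in lapatinib (log2 1.37, SE 0.17, adjusted p = 0.00039, edgeR). The interaction of siRNA and drug, which measures by how much the lapatinib response differs between the siRNAs, was 1.20 (SE 0.24, adjusted p = 0.0107) and kept its call in all 12 fits that each left out 1 library.

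The promoter windows of 4 keratins that stand out above are given as a reference for their sequence, from 250 bases before to 50 bases after a RefSeq start site (GRCh38.p14, 5′ to 3′ on the strand of the gene, which is the minus strand in all 4). KRT5 and KRT9 rose most with FOXA1 siRNA among genes with a window, KRT40 rose and KRT24 fell with lapatinib. Capitals mark the forkhead motif GTAAACA or GTCAACA (both strands searched) and the TATA box TATAAA (strand of the gene). The windows are KRT5 at chr12:52520345-52520644, KRT9 at chr17:41572010-41572309, KRT24 at chr17:40703703-40704002 and KRT40 at chr17:40984277-40984576, the last of 4 start sites of that gene.
KRT5: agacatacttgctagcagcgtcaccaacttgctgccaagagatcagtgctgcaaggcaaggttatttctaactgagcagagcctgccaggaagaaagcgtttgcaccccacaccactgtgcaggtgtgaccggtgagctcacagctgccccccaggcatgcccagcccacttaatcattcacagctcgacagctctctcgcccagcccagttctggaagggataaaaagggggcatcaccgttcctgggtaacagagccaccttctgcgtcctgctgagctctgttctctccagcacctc
KRT9: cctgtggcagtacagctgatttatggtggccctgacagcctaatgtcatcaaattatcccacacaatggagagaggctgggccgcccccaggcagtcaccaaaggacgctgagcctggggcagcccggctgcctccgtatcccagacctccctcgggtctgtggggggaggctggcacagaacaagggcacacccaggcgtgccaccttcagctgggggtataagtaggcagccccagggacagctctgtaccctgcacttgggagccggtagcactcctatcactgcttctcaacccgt
KRT24: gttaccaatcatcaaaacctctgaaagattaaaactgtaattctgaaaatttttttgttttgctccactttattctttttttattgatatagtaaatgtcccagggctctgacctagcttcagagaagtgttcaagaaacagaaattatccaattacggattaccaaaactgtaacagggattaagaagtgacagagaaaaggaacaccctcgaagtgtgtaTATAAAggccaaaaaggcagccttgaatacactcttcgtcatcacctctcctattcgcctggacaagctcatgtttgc
KRT40: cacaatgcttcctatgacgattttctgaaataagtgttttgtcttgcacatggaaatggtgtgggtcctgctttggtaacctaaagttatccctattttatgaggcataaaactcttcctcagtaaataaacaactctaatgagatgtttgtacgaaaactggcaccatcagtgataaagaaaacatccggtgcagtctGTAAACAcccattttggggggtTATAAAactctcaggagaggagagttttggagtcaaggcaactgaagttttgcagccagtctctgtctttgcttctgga
In KRT40 the forkhead letters begin 51 and TATAAA 29 bases before the start, and in KRT24 TATAAA begins 28 bases before it. The other 3 windows of KRT40 hold neither motif. Over all 38 windows of the 34 keratins that had one, 3 (7.89%) held the forkhead motif, those of KRT40, KRT37 and KRT38, against 5.62% of 35116 windows of all genes. TATAAA was in 19 keratin windows (50%) against 7.33% of all. The AP-1 motif TGANTCA (both strands) was in none of the 38 against 7.71% of all. A match is a description of the letters, and 12 of 28 tested keratins had a window.

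Without the replicate block, lapatinib changed a smaller share of the keratins than of all genes with NT siRNA, a difference that was not tested. With NT siRNA, 4 of 28 keratins rose (KRT4, KRT7, KRT23 and KRT40) and 4 fell (KRT6B, KRT13, KRT24 and KRT32), against 29.9% and 28.6% of all tested genes. With the replicate block 8 rose and 6 fell, and the share over all genes was not computed with the block. With FOXA1 siRNA, 11 rose and 3 fell, and 6 fell with the block. The background was 28.5% higher and 28.7% lower. The median log2 fold changes were -0.07 and 0.07 over the tested keratins, and 0.027 and 0.006 over all tested genes.

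KRT7 was the luminal keratin that rose with lapatinib. It had 54853, 63619 and 55899 normalized counts with NT siRNA and DMSO against 75113, 76581 and 75360 with lapatinib, and 57898, 61930 and 58551 against 70112, 72498 and 71475 after FOXA1 siRNA, without overlap. The fold changes were 1.32 (log2 0.40, SE 0.06, adjusted p = 0.000765) and 1.21 (log2 0.27, SE 0.04, adjusted p = 0.000393, edgeR). KRT8, KRT18 and KRT19 were not called with lapatinib after either siRNA, with log2 fold changes from 0.00 to 0.15. KRT18 with NT siRNA was called with the replicate block (0.15, adjusted p = 0.0189). KRT4 rose with lapatinib by 0.33 (adjusted p = 0.0297) and 0.22 (adjusted p = 0.0214) on the log2 scale. The first call was lost without replicate 2 or 3 with DMSO (0.11 and 0.0737) or replicate 1 or 3 with lapatinib (0.109 and 0.0913), the second without replicate 1 or 3 with lapatinib (0.08 and 0.0644).

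No basal keratin was called with lapatinib after NT siRNA, although KRT15 did not overlap (log2 0.19, adjusted p = 0.0624, and 0.0379 with the block). After FOXA1 siRNA lapatinib raised KRT15 1.81-fold (log2 0.85, SE 0.15, adjusted p = 0.00134) and KRT17 1.86-fold (log2 0.89, SE 0.31, adjusted p = 0.037). For KRT17 the call held in 1 of 6 fits, the one without replicate 2 with FOXA1 siRNA and lapatinib, and reached 0.138 without replicate 1 of that group. DESeq2 did not call KRT17 either (0.135). KRT5 was at -0.52 on the log2 scale (adjusted p = 0.0694, and 0.0293 with the block) and KRT14 at 0.07, neither called without the block. KRT16 rose after FOXA1 siRNA (log2 0.93, SE 0.30, adjusted p = 0.0267). That call was lost without replicate 2 or 3 with DMSO (0.062 and 0.0672) or replicate 1 or 3 with lapatinib (0.0884 and 0.0793). KRT6B fell with lapatinib after NT siRNA, on 11 against 1 summed counts (adjusted p = 0.0397), a ratio of DMSO to lapatinib of 10.1 (95% interval 1.47 to 436). KRT6B reached 10 counts only with DMSO (after FOXA1 siRNA), so this call is a description. DESeq2 did not call it (0.124). The call held in 2 of 6 fits, those without replicate 2 with DMSO or replicate 3 with lapatinib (up to 0.13 in the others).

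KRT24, a suprabasal type I keratin, fell with lapatinib. With NT siRNA the normalized counts were 178, 131 and 212 against 60.6, 63.6 and 71.8, a fall to 0.383 of the control level (log2 -1.38, SE 0.20, adjusted p = 0.000424). After FOXA1 siRNA they were 103, 107 and 125 against 64.05, 68.2 and 97.2 (log2 -0.54, adjusted p = 0.0373), and only the fit without replicate 3 with lapatinib kept that call (up to 0.117 in the others). FOXA1 siRNA lowered KRT24 in DMSO (log2 -0.63, adjusted p = 0.0277, kept without replicate 2 with NT siRNA or replicate 3 with FOXA1 siRNA and lost in the other 4 fits, up to 0.0995), and not in lapatinib (0.22). KRT13 fell with lapatinib after NT siRNA (log2 -1.25, SE 0.29, adjusted p = 0.0061) and not after FOXA1 siRNA (0.17). KRT10 fell after FOXA1 siRNA (log2 -0.43, SE 0.06, adjusted p = 0.000584), and after NT siRNA it was -0.23 (adjusted p = 0.0524, and 0.00674 with the block). KRT9 rose 3.03-fold (log2 1.60, SE 0.40, adjusted p = 0.00857) and KRT78 1.49-fold (log2 0.58, SE 0.14, adjusted p = 0.00861) with lapatinib after FOXA1 siRNA. After NT siRNA KRT9 was 0.90 (adjusted p = 0.202, and 0.0233 with the block) and KRT78 -0.45. KRT3 was 0.80 after NT siRNA (adjusted p = 0.0655, and 0.0316 with the block) and 0.93 after FOXA1 siRNA (adjusted p = 0.0461, 0.206 by DESeq2, and kept without replicate 2 with lapatinib alone, up to 0.147 in the other 5 fits).

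**Figure D3:**
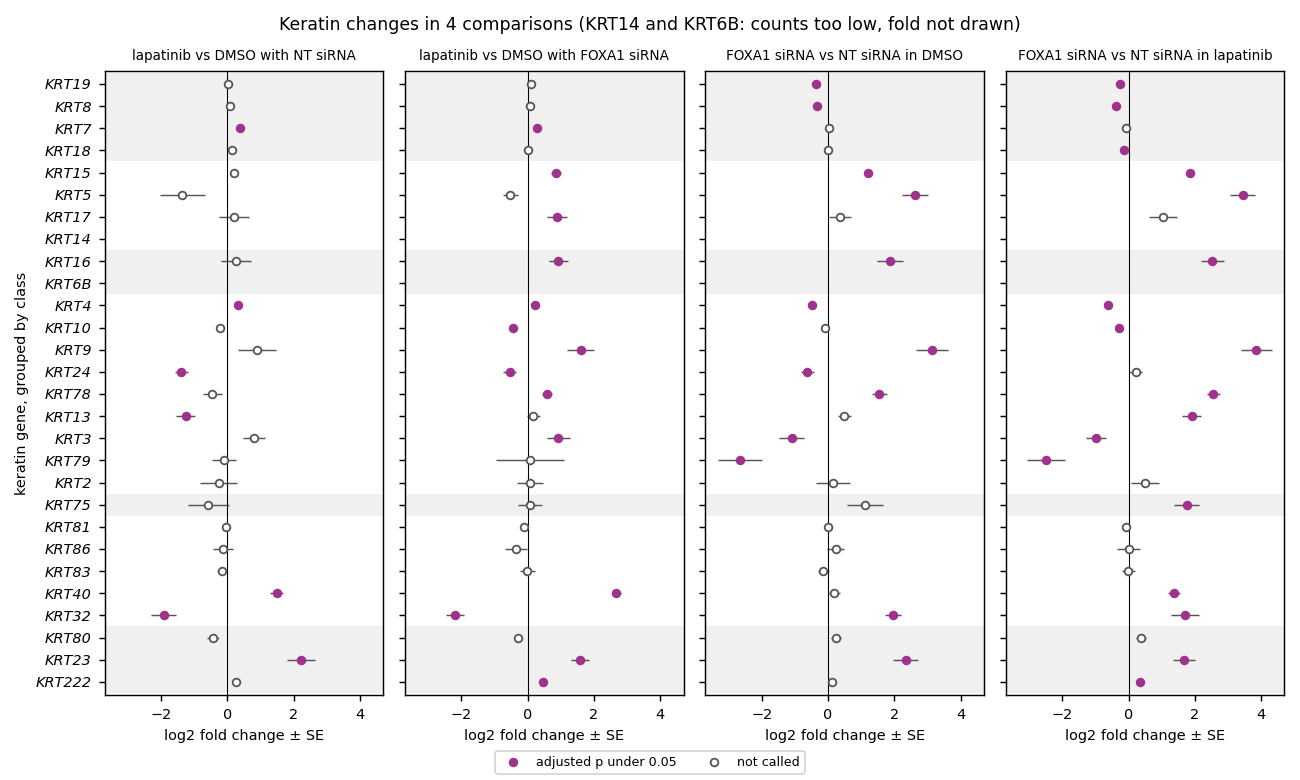
Log2 fold change with its SE (edgeR) of the tested keratins in 4 comparisons, grouped by class with shading. Filled points had an adjusted p under 0.05. The 4 luminal keratins lie within 0.40 of 0 in all panels, while KRT5, KRT9, KRT15, KRT16 and KRT78 lie far to the right in both panels of FOXA1 siRNA, and KRT32 lies to the left under lapatinib and to the right under FOXA1 siRNA.

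KRT23, a type I keratin outside these classes, rose in all 4 comparisons. Its normalized counts were 132, 322 and 131 with NT siRNA and DMSO, 656, 1407 and 629.8 with NT siRNA and lapatinib, 825, 1351 and 765 with FOXA1 siRNA and DMSO, and 2421, 3940 and 2362 with both. In each group replicate 2 was the highest and replicate 3 the lowest, and no 2 groups that were compared overlapped. Lapatinib raised KRT23 4.67-fold (log2 2.22, SE 0.43, adjusted p = 0.00214) with NT siRNA and 2.98-fold (log2 1.58, SE 0.26, adjusted p = 0.000972) with FOXA1 siRNA. FOXA1 siRNA raised it 5.06-fold (log2 2.34, SE 0.37, adjusted p = 0.00167) in DMSO and 3.21-fold (log2 1.68, SE 0.33, adjusted p = 0.00369) in lapatinib. The interaction was -0.64 (SE 0.55, adjusted p = 0.566), and with the replicate block -0.62 (SE 0.15, adjusted p = 0.00994).

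KRT80, a widely expressed type II chain, was not called in the main fits and was called in all 4 comparisons with the replicate block. Its normalized counts were 6323, 8511 and 5923 with NT siRNA and DMSO, 4763, 6275 and 4117 with NT siRNA and lapatinib, 7560, 9176 and 7659 with FOXA1 siRNA and DMSO, and 6303, 7840 and 5608 with both, replicate 2 highest in every group. Without the block the adjusted p lay from 0.0627 to 0.205 in the 4 comparisons. Fits that each left out 1 library called KRT80 in at most 2 of 6. With the block it fell with lapatinib (log2 -0.44, adjusted p = 5.18e-05 after NT siRNA, and -0.30, adjusted p = 0.000273 after FOXA1 siRNA) and rose with FOXA1 siRNA (0.25, adjusted p = 0.000545 in DMSO, and 0.38, adjusted p = 1.44e-06 in lapatinib). KRT222, a short keratin-like gene, rose with lapatinib after FOXA1 siRNA (log2 0.47, adjusted p = 0.00705). With FOXA1 siRNA in lapatinib KRT222 was at 0.34 (adjusted p = 0.0461), a value DESeq2 did not call (0.0784) and that kept its call without replicate 3 with NT siRNA alone (up to 0.143 in the other 5 fits). It shares 35.6% of its 75-base stretches with another annotated gene. KRT75 of the companion layer of the hair follicle, the 1 tested gene of 9 in its class, had 8.86, 1.98 and 8.63 against 12.99, 8.37 and 20.9 normalized counts in DMSO and 5.94, 2.98 and 4.10 against 16.5, 12.5 and 15.3 in lapatinib, at 0.63 TPM or less. It reached 10 counts only with FOXA1 siRNA, so its log2 fold changes of 1.11 in DMSO (adjusted p = 0.138, and 0.0351 with the block) and 1.75 in lapatinib (SE 0.38, adjusted p = 0.00621) are descriptions.

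**Figure D4:**
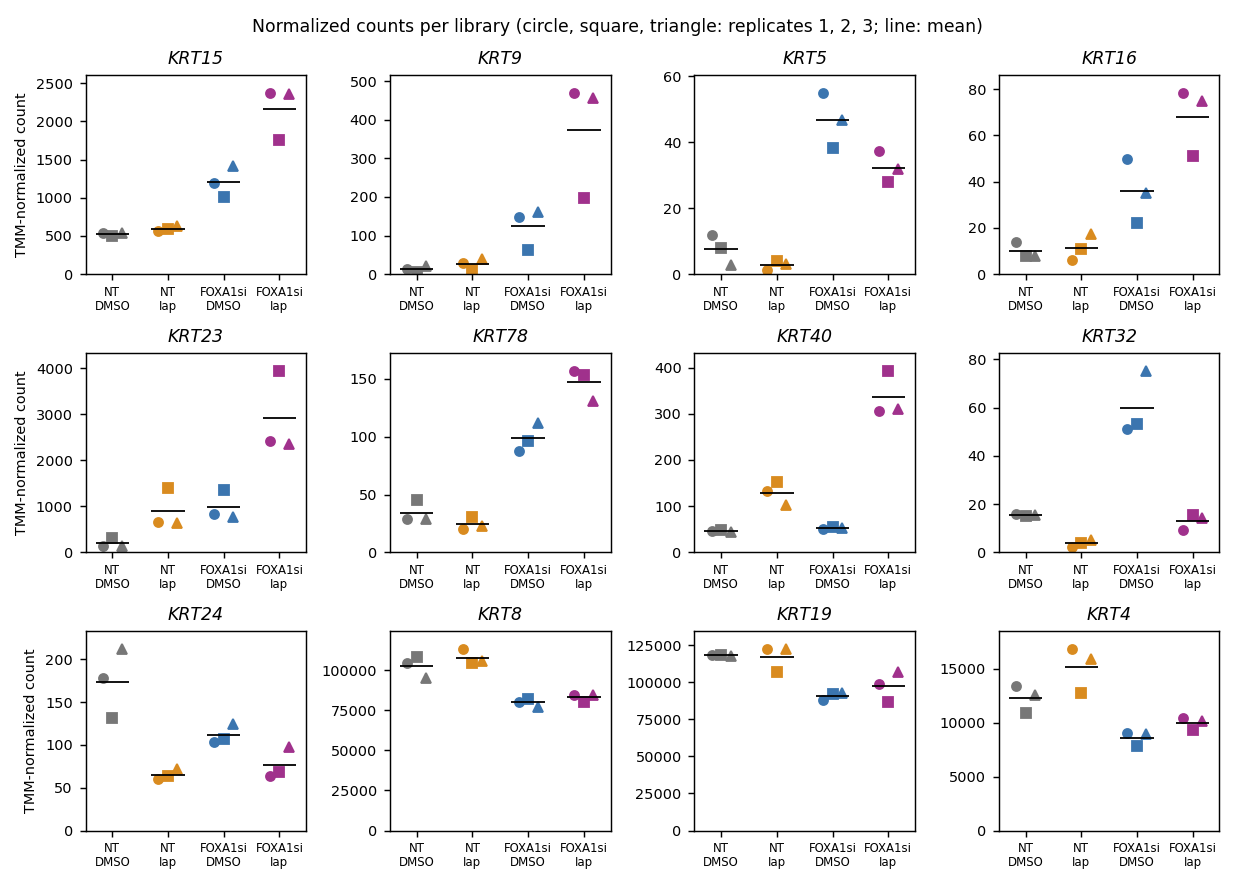
TMM-normalized counts of 12 keratins in each library, each panel on its own scale from 0. Circles, squares and triangles are replicates 1, 2 and 3, and lines are group means. KRT15, KRT9, KRT5, KRT16 and KRT78 are higher in every library with FOXA1 siRNA than in those with NT siRNA and the same treatment, KRT40 rises with lapatinib and most with both, KRT32 moves oppositely with drug and siRNA, and KRT8 and KRT4 are lower with FOXA1 siRNA, as is KRT19 in DMSO.

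The interaction was called for 3 keratins, all with a more positive lapatinib log2 fold change after FOXA1 siRNA than after NT siRNA, where 3.99% of all tested genes were called in that direction and 3.2% in the other. With the replicate block 5 were called in that direction and 1, KRT23, in the other, and no share over all genes was computed with it. No keratin had a negative interaction at an unadjusted p under 0.05 without the block. DESeq2 called 4 keratins with a positive interaction and none with a negative one. Besides KRT40 the 3 called in the main edgeR fit were KRT13 (1.43, SE 0.36, adjusted p = 0.0315) and KRT15 (0.68, SE 0.19, adjusted p = 0.0461). The 2 added by the block were KRT78 (1.04, adjusted p = 0.0211 with it and 0.0586 without) and KRT24 (0.85, adjusted p = 0.00952 with it, and 0.86, adjusted p = 0.0929 without). KRT13 kept its call in 3 of 12 fits that each left out 1 library (without replicate 2 with NT siRNA and DMSO, replicate 1 with NT siRNA and lapatinib, or replicate 2 with FOXA1 siRNA and lapatinib), and reached 0.0896 in the others. KRT15 kept it in 3 of 12 (without replicate 2 with NT siRNA and DMSO, replicate 3 with FOXA1 siRNA and DMSO, or replicate 2 with FOXA1 siRNA and lapatinib) and reached 0.112. For the luminal keratins the interaction lay between -0.14 and 0.12 and was not called.

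The keratins were also laid out by position, with no test of it. On chromosome 17 KRT13, KRT15, KRT19, KRT9, KRT14, KRT16 and KRT17 are neighbours between 41500981 and 41624575 (GRCh38). With FOXA1 siRNA KRT15, KRT9 and KRT16 were called higher in both treatments and KRT13 in lapatinib. KRT14 was called higher in both too, as a description given its low counts. KRT17 was called in neither treatment, and KRT19, which lies between KRT15 and KRT9, fell in both. KRT23 and KRT40 lie apart from these at 40922700 to 40987135, with KRT39, not tested, between them. Of 13 tested type I genes, 6 rose and 2 fell with FOXA1 siRNA in DMSO, and 8 rose and 3 fell in lapatinib. Of 14 tested type II genes, 2 rose and 4 fell in DMSO, and 3 rose and 4 fell in lapatinib. With the replicate block 7 type I genes rose and 2 fell in DMSO, and 9 rose and 3 fell in lapatinib. Of the type II genes 4 rose and 4 fell in DMSO with the block, and 5 rose and 5 fell in lapatinib. The difference between the types was not tested.

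**Figure D5:**
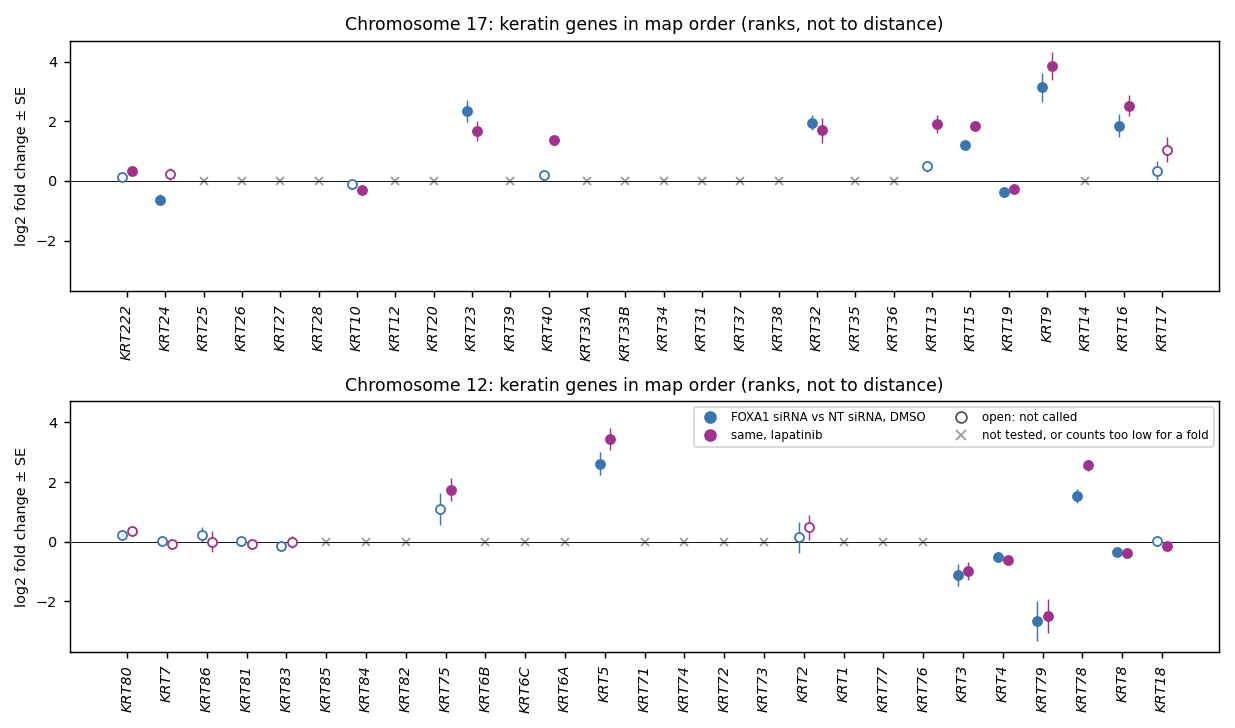
Log2 fold change (SE as bars, edgeR) with FOXA1 siRNA of the keratins in their order along chromosomes 17 and 12, spaced by rank. Filled points had an adjusted p under 0.05 and crosses were not tested or too low in counts for a fold. KRT19 lies below 0 between KRT15 and KRT9, which lie above it.

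The other genes of keratin filaments and stratified epithelia were counted as fixed lists, with no test of a list. The background over all tested genes was 29.9% higher and 28.6% lower with lapatinib after NT siRNA, and 28.5% and 28.7% after FOXA1 siRNA. With FOXA1 siRNA it was 21.0% and 21.0% in DMSO, and 22.2% and 21.8% in lapatinib. It was computed without the replicate block only. Of 17 tested desmosome and plakin genes, which anchor keratin filaments, lapatinib raised 11 and lowered 2 with NT siRNA (median log2 fold change 0.44), and raised 12 and lowered 1 with FOXA1 siRNA (median 0.53), among them DSC2 (log2 1.36 and 0.93), PPL (0.86 and 0.54) and EVPL (0.55 and 0.76). With the replicate block lapatinib raised 12 and lowered 3 of them with NT siRNA, and raised 13 and lowered 2 with FOXA1 siRNA. FOXA1 siRNA raised 5 and lowered 3 of these genes in DMSO (7 and 4 with the block). In lapatinib it raised 6 and lowered 2 (7 and 4 with the block). Of 5 tested genes of the cornified envelope, 3 rose and none fell with FOXA1 siRNA in both treatments, IVL by 2.11 and 2.06, TGM1 by 1.18 and 1.60 and CNFN by 0.67 and 0.58 on the log2 scale. Of 9 tested intermediate filament genes other than keratins, 5 rose and 1 fell with FOXA1 siRNA in DMSO (median 0.52, and 6 rose with the block). In lapatinib 6 rose (median 0.95, and 1 fell with the block). NEFH rose by 3.08 and 2.84 and NES by 1.57 and 0.95 on the log2 scale, in DMSO and lapatinib. Of 16 epithelial transcription factors, lapatinib raised 15 and lowered 1, TP63, with NT siRNA (median 0.65). After FOXA1 siRNA it raised 11 and lowered none (median 0.47, and 12 raised and 1 lowered with the block). TP63 reached 10 counts only with DMSO, so its fall, counted again among the myoepithelial markers below, is a description. The interaction of these factors was called lower for 7 and higher for none (1 with the block). With FOXA1 siRNA 5 of them rose and 5 fell in DMSO (median -0.06, and 7 fell with the block). In lapatinib 7 fell, GRHL3 by 1.48 and EHF by 1.15, and none rose (median -0.17), whereas 9 fell and 4 rose with the block. Of 6 tested myoepithelial markers, FOXA1 siRNA raised 1 in DMSO, ACTA2 (log2 1.19, adjusted p = 0.0184), and raised LAMB3 and MYLK and lowered TAGLN in lapatinib. With the block 2 rose and 1 fell in DMSO, and 3 rose and 2 fell in lapatinib. Lapatinib raised 1 and lowered 2 of them with NT siRNA and raised 2 and lowered 1 with FOXA1 siRNA (2 lowered with the block). Of 10 luminal markers, 3 of them keratins described above, FOXA1 siRNA raised 1, MUC1, and lowered 4 in DMSO (6 with the block). In lapatinib it raised 1 (2 with the block) and lowered 7. CDH1, 1 of the 10, reached 10 counts only with NT siRNA and lapatinib (at most 0.25 TPM), so its values are descriptions. Of 10 markers of immune, endothelial, stromal and liver cells 4 reached the count limit, and the 10 summed to 20.97 to 47.54 TPM. CD68 was at 14.8 to 42.54 TPM and COL1A1 at 2.74 to 5.58 TPM, while PTPRC of leukocytes stayed at or under 0.32 TPM. Among these markers FOXA1 siRNA lowered 1 in DMSO and raised 1 in lapatinib. With the block it raised 1 and lowered 2 in DMSO and raised 2 in lapatinib.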

How the data were processed

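PolyA RNA of SKBR-3 was sequenced in 12 samples, 3 replicates in each of 4 groups, mapped to groups by the sample labels. The methods give STAR alignment to hg38, Salmon quantification, upper quartile normalization and DESeq2, whereas the columns deposited by the authors are those of RSEM, also named in the submitters' processing notes. The authors deposited for each gene and library an expected count, an estimated number of reads that need not be whole, a TPM, an effective length in bases and an upper quartile normalized signal, which was read only to check the unit. The labels name both a TruSeq kit and a stranded KAPA kit, and the use of strand in counting is not given in the sources used here, so overlapping genes on opposite strands are uncertain. Total counts per library ranged from 25749578 to 32271850, and 29 genes without a symbol held 0.041% of counts and stayed out. The TPM of the listed genes summed to 896833 to 939340.

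Expected counts were rounded and tested in R 4.3.3 with the quasi-likelihood test of edgeR 4.0.16 after TMM normalization, on genes reaching 10 counts in 1 or more of 12 samples. For a comparison of 2 groups the 6 samples of those groups were fitted, and for the interaction all 12. The threshold was 0.05 for the p adjusted by Benjamini-Hochberg over all tested genes, with no minimum fold. The SE of a log2 fold change was derived from its F statistic. Normalized counts are scaled to the mean TMM library size. The fits were run on simulated data with known changes, drawn without the pairing by replicate number. Changes were placed only in genes above a count minimum, and the recovery required of the fits left out the interaction. That run therefore does not cover the pairing, calls at low counts or the interaction. For the called changes of KRT14, KRT6B and KRT79, ratios with 95% intervals (exact, counting error only) were given in the text in place of fitted folds. A group without counts was set to 3 counts as the limit. Other keratins with few counts, KRT5, KRT32 and KRT75 among them, kept their fitted folds without such an interval. The deviations of same-numbered samples from their group means correlated in all 18 pairs of such samples. The mean r was 0.39 (lowest 0.241, over 12170 genes), against -0.184 for different numbers. The main fits left out the replicate number, so the calls given without mention of the block ignore this pairing. The fit with the number as a block was an alternative, with DESeq2 1.42.0, other scalings, filters and thresholds, 1 model for all 12 samples, and leaving out each library. Every keratin called or with a mean normalized count of at least 100 in a group was described, values per library were given for those called with a change of 1 or more on the log2 scale or a mean of 1000 or more, and other lists were given by counts and up to 4 genes with the smallest adjusted p. The keratins, classes and lists were chosen with earlier results of these data known. Promoter windows came from RefSeq (GRCh38.p14), gene positions and shared 75-base stretches from the GENCODE annotation of GRCh38. Python 3.11.15 with pandas 2.3.3 and matplotlib 3.10.9 made the tables and plots.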

Additional observations from a re-analysis of the deposited data

Results flagged for a closer look

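For 3 keratins the lapatinib response differed between the siRNAs in the test of the difference itself, the interaction term of edgeR on 12 samples. For KRT13 the interaction was 1.43 on the log2 scale (SE 0.36, adjusted p = 0.0315), for KRT15 0.68 (SE 0.19, adjusted p = 0.0461) and for KRT40 1.20 (SE 0.24, adjusted p = 0.0107), all toward a higher value with both FOXA1 siRNA and lapatinib. Over the fits that each left out 1 library the values lay between 1.21 and 1.72 for KRT13, 0.56 and 0.81 for KRT15 and 1.05 and 1.34 for KRT40, and 3, 3 and 12 of 12 fits kept the call. Groups of 3 are too small for a search for single outlying libraries.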

How the results depend on the processing

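Of 58 called values (a keratin in a comparison), none changed sign in any alternative, 39 were called in every alternative that gave a value, 18 were lost in at least 1 fit that left out a library, and 10 in at least 1 other alternative. DESeq2 lost 7, the model of all 12 samples 4, no filter 3, and upper quartile scaling and 10 counts in every sample 1 each, with none lost under RLE scaling, a filter on the samples of the comparison or the replicate block. The replicate block added 19 calls among 82 values not called before, of which 27 changed sign in some alternative. It moved the keratins that rose with lapatinib after NT siRNA from 4 to 8, those that fell after FOXA1 siRNA from 3 to 6, and the interaction from 3 to 5 higher and from 0 to 1 lower, and it changed no other call than those given beside the results. With 10 counts in every sample, 7 keratins rose with lapatinib after FOXA1 siRNA, 3 rose with FOXA1 siRNA in DMSO, and 6 rose and 4 fell with it in lapatinib, since fewer keratins were tested. At an adjusted p under 0.01, 7 rose with lapatinib after FOXA1 siRNA, 3 fell with FOXA1 siRNA in DMSO, 4 fell with it in lapatinib and 0 were called for the interaction. With a log2 fold change of at least 1, 2 rose with lapatinib after NT siRNA, 3 rose and 1 fell after FOXA1 siRNA, 2 fell with FOXA1 siRNA in DMSO and 1 fell with it in lapatinib. Leaving out 1 library at a time, the keratins that rose with lapatinib after FOXA1 siRNA numbered 7 to 12 (7 without replicate 1 or 3 of the group given both), those that fell with FOXA1 siRNA 3 to 7 in DMSO (3 without replicate 1 of FOXA1 siRNA and DMSO) and 4 to 6 in lapatinib (4 without replicate 1 of NT siRNA and lapatinib). The interaction numbered 1 to 4 higher (1 without any of 7 libraries: replicates 1 and 3 of NT siRNA and DMSO, replicate 3 of NT siRNA and lapatinib, replicates 1 and 2 of FOXA1 siRNA and DMSO, and replicates 1 and 3 with both) and 0 to 1 lower (1 without replicate 2 of NT siRNA and DMSO). The other counts of calls stayed within 1.5 times. TPM recomputed over the listed genes raised the sum of all keratins from 15037, 15811, 13107 and 13684 to 16137, 17547, 14119 and 15079 in the 4 groups. Keratins with a few counts per library (KRT14, KRT6B and KRT79 among them) were limited by depth, and for these a lack of change was not detectable.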
